A study of Mus musculus with 45 samples.

Results

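The comparison set mouse neural organoids treated with retinoic acid (RA) against untreated ones at 18 h after day 2 of culture, across all genes, and asked which functions and gene families made up each direction of the response. It used 6 of the 45 libraries of the series, the 3 labelled RA 18 h and the 3 labelled untreated 18 h, and 16508 of the 54532 genes in the count table had enough counts to be tested. Both groups were organoids grown clonally in Matrigel from the R1 line of mouse embryonic stem cells, with no allele or transgene named in the labels, in N2B27, a serum-free medium that permits neural differentiation. The RA group received 250 nM all-trans RA at day 2, and the untreated group (0 nM) was kept without it for the same 18 h. One protocol text among the labels gives the dose in µM, and the unit of the design text is used here. Each library was bulk poly(A) RNA of organoids extracted together, all from 1 cell line, and the labels call the 3 libraries of a group biological replicates. Because the RNA is bulk, fewer cells of a type and less RNA per cell cannot be told apart in any value below.

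RA is a small molecule made from vitamin A that enters the nucleus and binds receptors of the RAR family, which sit on DNA with RXR partners. In the embryo it is best known for giving neural tissue a posterior identity: it opens the Hox clusters in order from their anterior end and counteracts programmes of the forebrain. Its own level is kept in bounds by enzymes of the CYP26 family, which oxidise it, and by binding proteins and reductases, many of which are themselves RA targets. In embryonic stem cells it also ends the pluripotent state.

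The 6 libraries held 21656865 to 39688686 counts, so that 3 counts, taken as the limit of detection, were at most 0.139 CPM (counts scaled to a common library size). The labelled cell state was checked against markers. The summed level of Sox1, Sox2, Sox3, Pax6 and Nes, which mark neural progenitors, was 426 to 459.96 CPM in untreated and 471 to 498 CPM in RA-treated libraries. Pluripotency markers (Pou5f1, Nanog, Zfp42, Esrrb and Klf4) were also present, with sums of 1135 to 1218 CPM in untreated and 656 to 729 CPM in RA-treated libraries. Markers of primed epiblast (Fgf5, Pou3f1, Otx2 and Dnmt3b) summed to 2341 to 2614 CPM and 291 to 330.3 CPM. Sox2 made up most of the neural progenitor sum and is also a core pluripotency factor. It measured 310 to 332 CPM in untreated and 275 to 297 CPM in RA-treated libraries. Sox1, which is specific to neural tissue, measured 4.99 to 5.98 CPM and 28 to 30 CPM. Transcripts of both kinds were thus present in both groups, but the sums do not show a like neural state. Defining markers of definitive placenta and yolk sac cells were at or near 0, with Prl3d1 and Ttr at 0 counts in all 6 libraries. The mean level of 4 genes of the Y chromosome lay between 50.3 and 59.5 CPM in these 6 libraries.

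RA raised more genes than it lowered. Of the 16508 genes tested, 1348 (8.17%) rose and 455 (2.76%) fell, together 10.9%, where a gene counted as changed when its adjusted p lay under 0.01 and its log2 fold change lay beyond 1 in either direction. The median log2 fold change over all genes was 0.02. The genes that rose had a median log2 fold change of 1.58, and 394 of them exceeded 2, 154 exceeded 3 and 75 exceeded 4. The genes that fell had a median of -1.47, with 110, 32 and 11 beyond the same sizes. In 1347 of the genes that rose and 455 of those that fell the libraries of the groups did not overlap. With 3 libraries a group this nearly follows from the call itself and is no separate support. Many of the genes that moved were scarce: 170 of the genes that rose and 43 of those that fell stayed under 1 CPM in their higher group. A gene could pass the filter on low counts through its higher group alone, and in 35 and 10 genes every library of the lower group had at most 3 counts. Protein-coding genes made up 1220 of the genes that rose and 373 of those that fell, and the lists and families described here held 372 and 123 genes of the respective directions.

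**Figure D1:**
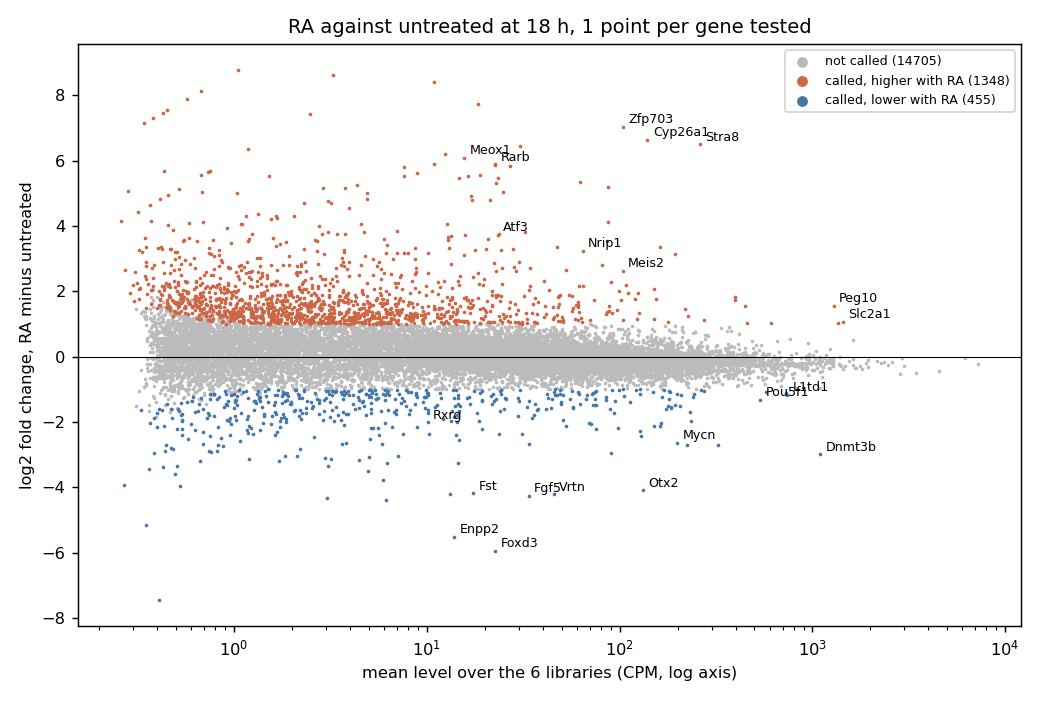
Log2 fold change at 18 h (RA minus untreated) against mean level over the 6 libraries in CPM on a log axis, with 1 point for each of the 16508 genes tested. The 1348 genes that rose and the 455 that fell are coloured, and Cyp26a1, Stra8 and Zfp703 stand above 6 while Foxd3 and Enpp2 stand below -5.

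Among the called genes that handle RA itself rises outnumbered falls. Of 8 tested genes of RA breakdown and reduction, 5 rose and 0 fell, and the count was 3 without RA 18 h replicate 3 or untreated 18 h replicate 3. Under a minimum of 10 counts per library 5 of them could be tested and 2 rose. Cyp26a1 (ENSMUSG00000024987), the cytochrome P450 that oxidises RA, lies on chromosome 19 from 37697798 to 37701536 on the plus strand of GRCm38. It measured 2.26, 2.89 and 3.09 CPM in untreated and 257, 288 and 284 CPM in RA-treated organoids, or 6.63 ± 0.091 as log2 fold change ± standard error. Its adjusted p was 8.2e-14 (edgeR quasi-likelihood, Benjamini-Hochberg over all genes, as for all adjusted p-values below). Its paralogue Cyp26b1 rose from 0.336 ± 0.114 to 17.5 ± 1.46 CPM (mean ± SD, n = 3 libraries in each group, as in all such pairs below). Dhrs3, a reductase that returns retinal to retinol, rose from 1.1 ± 0.168 to 44.5 ± 3.35 CPM. The scarce genes Cyp26c1, at 0.147 ± 0.0725 CPM without and 0.557 ± 0.196 CPM with RA, and Lrat, which esterifies retinol, at 0.219 ± 0.144 CPM without and 0.796 ± 0.0648 CPM with RA, were also called. Cyp26c1 lost its call at a log2 fold change of 1.61 without RA 18 h replicate 3, 1.7 without untreated 18 h replicate 2 and 1.84 without untreated 18 h replicate 3, and also by DESeq2. Lrat lost its call at 1.94 and 2.01 without RA 18 h replicates 2 and 3 and at 1.38 without untreated 18 h replicate 3. Of the 5 tested genes that make RA, none was called by edgeR in either direction, with 1 higher and 2 lower at an unadjusted p under 0.05 and 0 called by DESeq2. Aldh1a2, the retinal dehydrogenase of the early embryo, measured 2.7 ± 0.478 CPM without and 4.71 ± 0.269 CPM with RA, and Rdh10, which makes retinal, 11.1 ± 0.409 CPM without and 11.4 ± 0.524 CPM with RA.

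Among 14 receptors and coregulators, 2 rose and 1 fell, or 14.3% and 7.14% against 8.17% and 2.76% over all genes. Rarb (ENSMUSG00000017491), one of the 3 RA receptors, lies on chromosome 14 from 16430839 to 16819156 on the minus strand and overlaps Top2b on the other strand. It measured 0.993, 0.66 and 0.694 CPM in untreated and 42.8, 44.2 and 46.4 CPM in RA-treated organoids (log2 fold change 5.87 ± 0.113, adjusted p = 8.4e-13). The receptor family thus did not move as one: Rara measured 55.4 ± 3.78 CPM without and 79.2 ± 7.2 CPM with RA and Rarg 190.1 ± 13.6 CPM without and 146 ± 13.3 CPM with RA, neither past the threshold of size, while Rxrg, a partner receptor, fell from 16.2 ± 1.26 to 4 ± 1.11 CPM. Nrip1, a corepressor that binds ligand-occupied receptors, rose from 12.5 ± 1.32 to 116 ± 3.19 CPM. In the binding and uptake list 5 of 12 tested genes rose and 1 fell. Crabp2, which carries RA to its receptors, rose from 29.1 ± 1.05 to 294 ± 15.3 CPM and Stra6, the membrane receptor that takes up retinol, from 3.29 ± 0.58 to 43.8 ± 4.18 CPM. Stra8 (ENSMUSG00000029848), best known as the RA-induced gate to meiosis, measured 5.64, 7.55 and 4.43 CPM in untreated and 515, 509.8 and 527 CPM in RA-treated organoids (log2 fold change 6.50).

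Direct repeats of the RAR binding half-site, spaced by 5 bases, were looked for in the promoter windows of the RefSeq table (GRCm38.p6, 250 bases before to 50 bases after each start listed there). The search used the half-sites AGGTCA or AGTTCA or GGGTCA or GGTTCA in any pair and on both strands, and 32 of 32851 windows (0.0974%) held such a repeat. Among the tested genes with a window 7 held one, namely 2 that rose, Cyp26a1 and Rarb, 0 that fell and 5 that were not called. Repeats of the same half-sites spaced by 2 bases were in 88 windows (0.268%) and in 13 tested genes, 3 that rose, 1 that fell and 9 that were not called. The table matched 935 of the 1348 genes that rose and 11718 of the 16508 tested, fewer than 80%, so that shares over these sets are void and none is compared. The 250 bases before the listed start are shown for both genes because the pair combines the repeat with a rise of over 5 on the log2 scale. For Rarb this start lies inside the span of the gene given above and is not the outer end of the gene. The repeat is in capitals, the strand is that of the gene, and a match of letters is a description and not a site shown to be bound.
Cyp26a1, chr19:37697558-37697807, plus strand, repeat from -32 to -16 relative to the start: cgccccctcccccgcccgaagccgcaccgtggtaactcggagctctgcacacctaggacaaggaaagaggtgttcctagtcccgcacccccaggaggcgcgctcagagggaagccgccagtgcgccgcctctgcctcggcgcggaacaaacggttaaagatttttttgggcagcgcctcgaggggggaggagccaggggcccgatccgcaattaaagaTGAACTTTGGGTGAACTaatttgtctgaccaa
Rarb, chr14:16575477-16575726, minus strand, repeat from -53 to -37 relative to the start: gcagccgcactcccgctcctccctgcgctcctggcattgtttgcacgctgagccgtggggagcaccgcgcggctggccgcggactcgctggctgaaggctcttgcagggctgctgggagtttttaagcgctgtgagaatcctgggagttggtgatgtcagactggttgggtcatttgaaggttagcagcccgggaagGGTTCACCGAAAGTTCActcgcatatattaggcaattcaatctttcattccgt

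The Hox genes, which specify position along the body axis, were the group with the largest share of members called among the 76 lists and families examined. Of 39 Hox genes 24 were tested, 21 rose and 1 fell, with a median log2 fold change of 4.33 against 0.02 over all genes. Most were close to absent without RA: under a minimum of 10 counts per library, 12 could be tested and 10 rose. All 9 genes from Hoxb1 to Hoxb9 rose. Hoxb1, the earliest gene of its cluster, measured 4.56, 4.62 and 4.77 CPM in untreated and 165, 172 and 171 CPM in RA-treated organoids. Each RA-treated library stood more than 10 times above each untreated one. Hoxb4, of the middle of the cluster, measured 0.767, 0.825 and 0.56 CPM in untreated and 55.9, 63.2 and 61.6 CPM in RA-treated organoids. Hoxb5 went from 0.166 ± 0.0788 to 36.5 ± 1.13 CPM and overlaps the antisense gene Hoxb5os, which was also called as a rise. The cluster's most posterior tested member, Hoxb9, rose from 3.22 ± 0.559 to 27.8 ± 0.171 CPM, and Hoxa9 and Hoxa10 rose from 0.342 ± 0.136 to 0.954 ± 0.201 CPM and 0.0767 ± 0.0512 to 1.31 ± 0.109 CPM. The call of Hoxa9 was lost without RA 18 h replicate 2, RA 18 h replicate 3 or untreated 18 h replicate 3, at log2 fold changes of 1.57, 1.37 and 1.28, and also by DESeq2 and in the fit of all 45 libraries. In the other clusters Hoxc4 and Hoxc5 rose from 0.229 ± 0.115 to 5.94 ± 1.11 CPM and 0.306 ± 0.318 to 3.43 ± 0.461 CPM, and Hoxd1 and Hoxd3 from 0.24 ± 0.0568 to 1.66 ± 0.277 CPM and 0.0501 ± 0.0651 to 0.643 ± 0.168 CPM. The exceptions were Hoxd13, which fell from 1.67 ± 0.241 to 0.697 ± 0.00327 CPM, and Hoxc8 and Hoxc13, which at 0.644 ± 0.182 CPM without and 0.312 ± 0.083 CPM with RA and 0.762 ± 0.403 CPM without and 0.697 ± 0.0864 CPM with RA were not called.

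**Figure D2:**
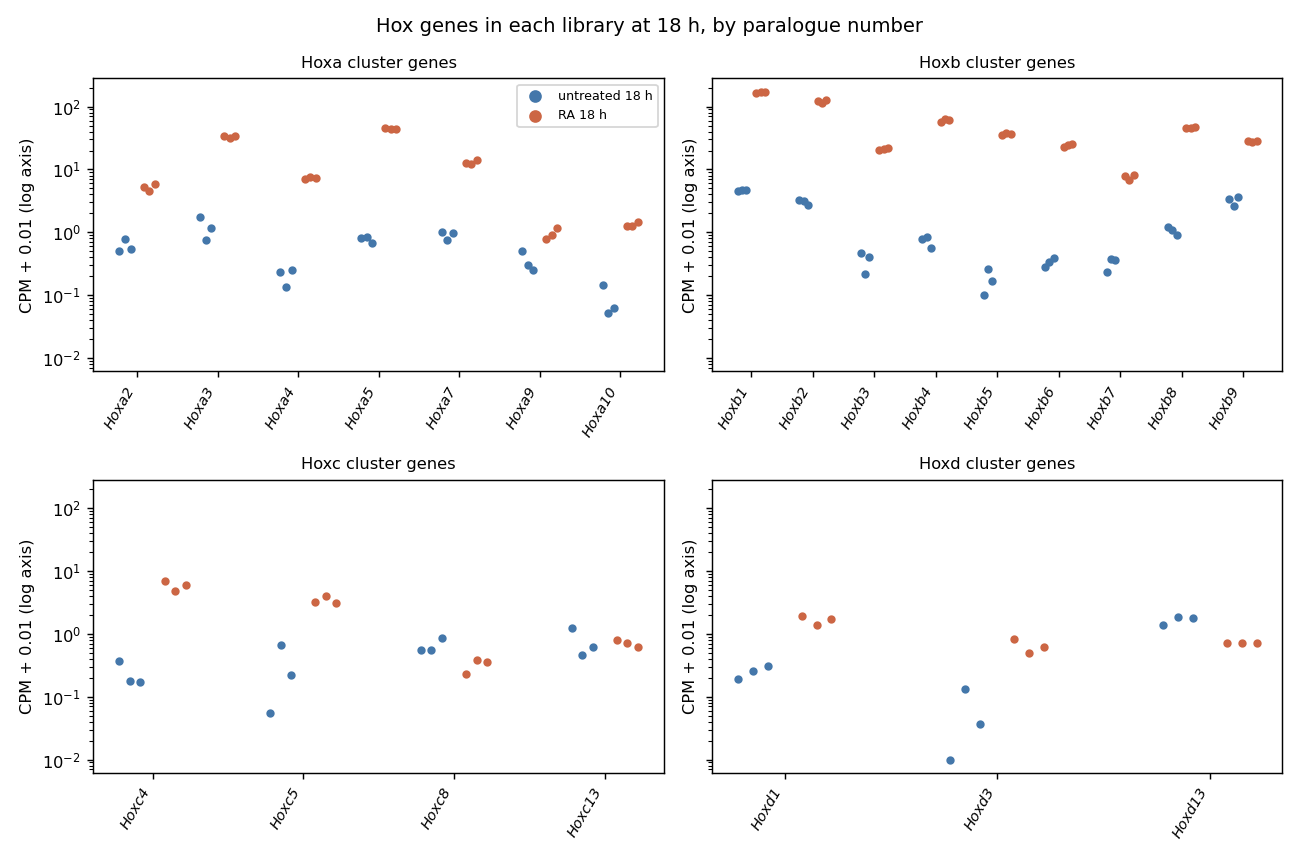
Level of tested Hox genes in each of the 6 libraries at 18 h, as CPM + 0.01 on a log axis, in paralogue order within the 4 clusters. All 9 genes of the Hoxb cluster are higher in every RA-treated than in every untreated library, while Hoxd13 is lower.

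The Hox rise extended to noncoding genes of the clusters. Halr1, a long noncoding RNA beside the Hoxa genes, went from 29.3 ± 1.23 to 92.6 ± 2.77 CPM. On chromosome 11 a run of 12 neighbouring tested genes from Hoxb9 through Hoxb1 to Skap1 rose. Outside the Hox clusters, a run of 7 genes that rose lay on chromosome 18 and held 6 gamma protocadherin genes and Gm26672.

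Some partners of Hox proteins rose as well. Of 11 TALE homeodomain cofactors tested, 5 rose, 0 fell and 6 were not called. Meis2 measured 28.8, 30 and 28.3 CPM in untreated and 179, 176 and 179.8 CPM in RA-treated organoids. Meis1 went from 1.08 ± 0.241 to 32.8 ± 2.17 CPM, Pbx2 from 47.3 ± 1.18 to 156 ± 3.27 CPM, Pknox2 from 3.32 ± 0.37 to 23.4 ± 0.866 CPM and Meis3 from 3.61 ± 0.468 to 8.18 ± 1.03 CPM. The TALE repressor Tgif1 measured 115 ± 4.64 CPM without and 62.6 ± 2.94 CPM with RA and was not called.

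Regulators of the hindbrain and the caudal body followed the same direction, with 10 of 15 tested genes higher, 0 lower and a median log2 fold change of 2.26. Under the minimum of 10 counts per library 7 of 12 rose. Cdx1, a caudal homeobox gene upstream of Hox genes, measured 1.04, 0.619 and 0.747 CPM in untreated and 33.6, 35.6 and 41 CPM in RA-treated organoids. Zfp703, a zinc finger corepressor, rose from 1.54 ± 0.482 to 207 ± 14.7 CPM, and its relative Zfp503 from 1.41 ± 0.257 to 9.56 ± 1.36 CPM. Gbx2, of the anterior hindbrain, rose from 44.8 ± 1.94 to 95.8 ± 2.38 CPM, and the COUP-TF genes Nr2f1 and Nr2f2 from 0.175 ± 0.0793 to 2.21 ± 0.536 CPM and 0.228 ± 0.0642 to 1.14 ± 0.173 CPM. Nr6a1, a receptor of the trunk, measured 322 ± 7.8 CPM without and 513 ± 4.45 CPM with RA (log2 fold change 0.68, adjusted p = 6.9e-08) and did not reach the threshold of size. Tshz1, a teashirt zinc finger gene of the trunk, was outside every list and was chosen after its values were seen, and went from 0.98 ± 0.306 to 52.8 ± 3.42 CPM.

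The anterior list gave a mixed picture. Of 16 tested regulators of forebrain and midbrain, 7 rose (4 of 12 under the minimum of 10 counts per library) and 2 fell. Otx2 (ENSMUSG00000021848), the homeobox gene needed for forebrain and midbrain and also a gene of the primed epiblast, measured 249, 233 and 264 CPM in untreated and 10.7, 17.6 and 14.9 CPM in RA-treated organoids (log2 fold change -4.10 ± 0.12, adjusted p = 2.8e-11). It overlaps Otx2os1 on the other strand. The rises in this list were of scarce transcripts, such as Emx2 from 0.557 ± 0.145 to 1.87 ± 0.343 CPM, Lhx2 from 0.856 ± 0.259 to 2.14 ± 0.5 CPM and Pax5 from 0.441 ± 0.0886 to 2.51 ± 0.62 CPM. Lmx1b, a gene of the isthmus and of several neuron types, was the most abundant of the rises and went from 3.67 ± 0.407 to 14.5 ± 1.41 CPM.

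The falls were led by the early epiblast. Of 21 genes of the formative and primed epiblast, 12 fell and 0 rose at the threshold used, with a median log2 fold change of -1.15. At an unadjusted p under 0.05, 2 were higher and 18 lower, and 0 rose by DESeq2. Foxd3 (ENSMUSG00000067261), a forkhead repressor of the epiblast and later of the neural crest, measured 45.2, 43.5 and 45.2 CPM in untreated and 0.521, 0.742 and 0.87 CPM in RA-treated organoids (log2 fold change -5.95 ± 0.114, adjusted p = 8.4e-13). Fgf5, the growth factor that marks the epiblast, measured 64.3, 63.6 and 64.8 CPM in untreated and 2.74, 3.55 and 3.7 CPM in RA-treated organoids. Every untreated library held over 15 times the level of every RA-treated library for both genes. Pou3f1, a POU factor of epiblast and early neural plate, fell from 247 ± 4.89 to 55.9 ± 3.19 CPM, Grhl2, which keeps epithelial character, from 112 ± 8.01 to 27.3 ± 2.65 CPM, and Lef1, a Wnt effector, from 160.1 ± 17.9 to 35 ± 3.8 CPM. Zic2 and Zic5, neighbours on chromosome 14, fell from 146 ± 10.4 to 63.7 ± 3.1 CPM and 99.5 ± 1.45 to 44.6 ± 1.3 CPM. Not every member fell: Nodal measured 63.5 ± 7.34 CPM without and 48.4 ± 1.98 CPM with RA and Wnt8a 74.8 ± 7.89 CPM without and 86.7 ± 4.86 CPM with RA, and neither was called.

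Genes of the naive and core pluripotency network divided. Of 30 tested, 5 fell, 2 rose and 23 were not called, with a median log2 fold change of -0.30. Pou5f1, the POU factor at the centre of the network, measured 755, 764 and 787 CPM in untreated and 291, 317 and 312 CPM in RA-treated organoids (log2 fold change -1.31, adjusted p = 3.2e-10). Its partner Sox2 measured 326, 309.7 and 332 CPM in untreated and 275, 297 and 288 CPM in RA-treated organoids (log2 fold change -0.16, adjusted p = 0.012). Nanog measured 129.96, 110.2 and 125 CPM in untreated and 137, 149 and 141 CPM in RA-treated organoids (log2 fold change 0.24, adjusted p = 0.0043). At this time the 3 core factors thus did not move together: Pou5f1 fell, Sox2 passed neither the threshold of adjusted p nor that of size, and Nanog was not lower. Utf1 fell from 276 ± 13.3 to 91.9 ± 14.9 CPM, Tdgf1, the Nodal coreceptor, from 264 ± 16.8 to 64.3 ± 11.3 CPM, Fgf4, an OCT4 and SOX2 target, from 212 ± 13 to 43.3 ± 5.87 CPM, and L1td1, an RNA-binding protein gene, from 1021 ± 60.8 to 453 ± 31.5 CPM. The pluripotency genes Lin28a and Zfp42 measured 996 ± 16.4 CPM without and 1014 ± 5.93 CPM with RA and 159 ± 11.7 CPM without and 156 ± 9.36 CPM with RA. Tbx3, a T-box gene of naive cells and of many embryonic tissues, rose from 7.39 ± 1.67 to 49.2 ± 7.08 CPM.

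**Figure D3:**
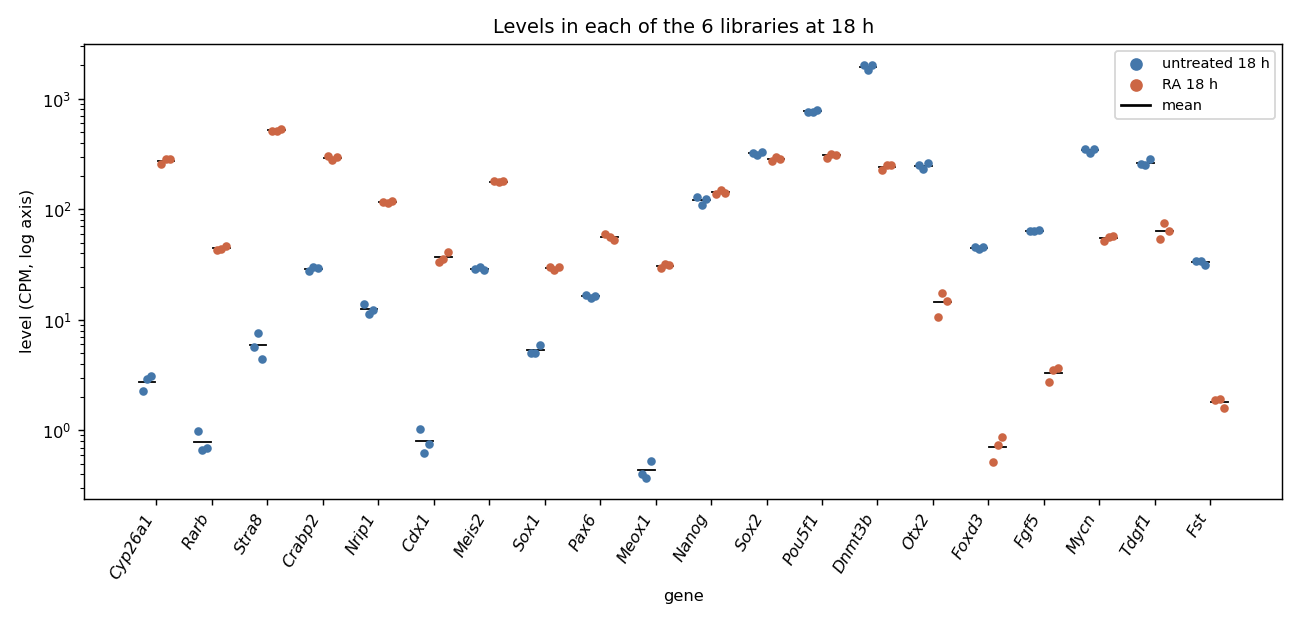
Level of 20 genes in each of the 6 libraries at 18 h in CPM on a log axis, with points for libraries and a bar for the mean of 3. The groups do not overlap for any of these genes, and Sox2 and Nanog are among those that differ least.

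Of 15 enzymes of DNA methylation 3 fell, 1 rose and 11 were not called, and scaling by library totals left 1 of the falls. Dnmt3b, the de novo methyltransferase of the epiblast, measured 2003, 1803 and 2035 CPM in untreated and 226, 250.5 and 253 CPM in RA-treated organoids (log2 fold change -2.99). Dnmt3a fell from 782 ± 49.9 to 364 ± 27.5 CPM and their cofactor gene Dnmt3l from 248 ± 18.9 to 116 ± 13.9 CPM, whereas Dnmt1, which maintains methylation, measured 496 ± 55 CPM without and 433 ± 45.2 CPM with RA and was not called. The fall of Dnmt3l was -0.995 on the log2 scale without RA 18 h replicate 1, just inside the threshold of size. With library totals Dnmt3a and Dnmt3l were at -0.976 and -0.97, and Dnmt3l was not called in the fit of all 45 libraries (adjusted p = 0.014). Of the genes that oxidise methylcytosine, Tet2 rose from 77.6 ± 3.21 to 169.9 ± 4.37 CPM and Tet3 measured 62.5 ± 1.37 CPM without and 72.9 ± 1.93 CPM with RA. Tet1 measured 529 ± 94.2 CPM without and 284 ± 38.9 CPM with RA, which passed the threshold only without RA 18 h replicate 1 (log2 fold change -1.01). Of 11 genes of the Myc family and its antagonists, Mycn fell from 343 ± 16.4 to 54.9 ± 3.35 CPM, Myc fell from 26.1 ± 0.552 to 12.4 ± 1.59 CPM and Mxd4, an antagonist, rose from 16.8 ± 0.25 to 41.4 ± 1.05 CPM. The log2 fold change of Myc was -0.994 without RA 18 h replicate 1 and -0.946 with library totals.

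Hairpin genes of the miR-302 cluster, a microRNA cluster of pluripotent cells, were among the falls. Of the genes of the cluster Mir302b, Mir302a and Mir367 had enough counts to be tested, and they lie on chromosome 3 between 127545228 and 127545807 on the plus strand. They went from 2.15 ± 0.367 to 0.24 ± 0.0805 CPM, 1.44 ± 0.188 to 0.214 ± 0.0873 CPM and, for Mir367, from 0.82 ± 0.282 to 0 CPM. These are reads of a poly(A) library over hairpin genes, not mature miRNA, and all RA-treated libraries had at most 8 counts, with Mir367 at 0. The mature sequences of the table (RefSeq, GRCm38.p6) are shown for 2 of the 3 because their seeds, bases 2 to 8 in capitals, differ.
miR-302b-3p: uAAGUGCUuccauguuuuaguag
miR-367-3p: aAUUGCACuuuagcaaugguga

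Neural genes rose in part. Of 25 neural progenitor genes, 7 rose and 0 fell, and by DESeq2 6 rose. Sox1, the first SoxB gene that is specific to neural tissue, measured 5.05, 4.99 and 5.98 CPM in untreated and 29.9, 28 and 30 CPM in RA-treated organoids. Pax6, a paired box gene of radial progenitors, measured 16.7, 15.8 and 16.4 CPM in untreated and 60.3, 56.5 and 52.8 CPM in RA-treated organoids. Both were higher in every RA-treated library. Sox3, another SoxB gene, measured 33.2 ± 1.06 CPM without and 30.3 ± 2.31 CPM with RA. The intermediate filament gene Nes measured 69 ± 5.33 CPM without and 82.8 ± 4.37 CPM with RA. Dorsal regulators counted 10 rises and 2 falls among 17 tested, with 6 rises without untreated 18 h replicate 3 and 5 of 12 under the minimum of 10 counts per library. The rises were small in absolute level: Pax3, of the dorsal neural tube and crest, went from 0.203 ± 0.0658 to 1.38 ± 0.281 CPM, Msx1, a BMP target, from 1.85 ± 0.396 to 4.75 ± 0.586 CPM, and Olig3, of dorsal progenitors, from 5.52 ± 0.927 to 13.2 ± 1.42 CPM. Of 18 ventral and hedgehog genes 5 rose. Hhip, a hedgehog-binding antagonist, rose from 2.42 ± 0.484 to 23.6 ± 2.29 CPM, the coreceptor genes Boc and Cdon from 1.84 ± 0.419 to 7.34 ± 1.06 CPM and 33.3 ± 1.79 to 68.7 ± 2.67 CPM, and the floor plate and endoderm genes Foxa1 and Foxa2 from 0.916 ± 0.153 to 11.1 ± 0.0454 CPM and 0.608 ± 0.134 to 2.27 ± 0.501 CPM. Gli1, the readout of hedgehog activity, measured 37.5 ± 1.33 CPM without and 51.3 ± 3.74 CPM with RA and Ptch1 214 ± 18.5 CPM without and 338 ± 14.8 CPM with RA, neither called.

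Genes of neurons showed scattered changes, 7 higher (4 of 25 under the minimum of 10 counts per library) and 2 lower of 34. Lhx1, a LIM homeobox gene of interneurons and also of mesoderm, rose from 0.343 ± 0.121 to 15 ± 0.797 CPM, and Mnx1, of motor neurons, from 0.624 ± 0.152 to 3.63 ± 0.292 CPM. Neurod1, a proneural factor, fell from 28.1 ± 1.84 to 8.41 ± 1.51 CPM. The structural neuron genes Tubb3, Ina and Stmn2 were not called. Tubb3 measured 68.8 ± 4.07 CPM without and 64.1 ± 7.37 CPM with RA and Ina 143 ± 8.42 CPM without and 108 ± 8.28 CPM with RA. Stmn2 measured 80.9 ± 0.473 CPM without and 47 ± 2.69 CPM with RA. Of 16 neural crest genes 6 rose (3 of 13 under the minimum of 10 counts per library) and 1, Foxd3, fell. Sox10 went from 0.331 ± 0.0155 to 1.53 ± 0.698 CPM, Ednrb from 0.379 ± 0.15 to 2.01 ± 0.411 CPM and Tfap2c, an AP-2 factor of surface ectoderm, crest and germ cells, from 34.4 ± 2.81 to 88.7 ± 6.58 CPM. In the Notch pathway 4 of 26 rose and 2 fell, or 15.4% and 7.69% against 8.17% and 2.76% over all genes. Lfng rose from 6.8 ± 0.325 to 15.8 ± 2.23 CPM and Hes5 from 0.568 ± 0.0889 to 2.29 ± 0.139 CPM, and Hes6 and Dll3 fell from 62.9 ± 0.545 to 20.5 ± 1.58 CPM and 12.5 ± 1.36 to 4 ± 0.413 CPM.

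Among FGF ligands, receptors and their Flrt partners 6 of 22 rose and 3 fell. The falls were ligand genes, Fgf5, Fgf4 and Fgf15, the last from 31.9 ± 1.6 to 6.77 ± 0.937 CPM. The rises were led by Flrt3 from 6.67 ± 0.741 to 30.5 ± 3.28 CPM, Fgfr3 from 1.84 ± 0.14 to 6.65 ± 0.46 CPM and Fgfr4 from 1.52 ± 0.361 to 4.14 ± 0.218 CPM. Of 21 feedback and target genes of FGF and ERK signalling, 4 fell and 2 rose. Etv5 fell from 338 ± 38.3 to 142 ± 13.3 CPM and Spry2, a feedback inhibitor, from 121 ± 0.772 to 48.3 ± 2.83 CPM. Dusp6 and Spred2, also feedback genes, measured 72.3 ± 3.93 CPM without and 92.3 ± 0.813 CPM with RA and 106 ± 5.71 CPM without and 143 ± 9.07 CPM with RA and were not called.

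In the BMP list 9 of 27 rose (5 of 23 under the minimum of 10 counts per library) and none fell by edgeR, with 2 lower at an unadjusted p under 0.05 and 0 by DESeq2. Bmp2 went from 0.134 ± 0.0866 to 2.54 ± 0.616 CPM, the inhibitory Smad gene Smad6 from 2.58 ± 0.428 to 7.41 ± 1.01 CPM and Msx2 from 1.04 ± 0.133 to 2.64 ± 0.367 CPM. Among 28 Nodal and TGF beta genes 4 rose (14.3%) and 2 fell (7.14%). Fst, the secreted antagonist of activin, measured 34.2, 33.8 and 31.2 CPM in untreated and 1.87, 1.94 and 1.61 CPM in RA-treated organoids (log2 fold change -4.18), and Tdgf1 is given above. Lefty1, a Nodal antagonist, rose from 11.2 ± 1.23 to 36.6 ± 4.03 CPM, and Inhbb, an activin subunit, from 6.09 ± 1.11 to 20.2 ± 2.86 CPM. Of 26 Wnt ligands and receptors 6 rose and 1 fell, such as Fzd4 from 8.78 ± 0.0747 to 26 ± 0.417 CPM and Wnt7b from 3.67 ± 0.287 to 9.5 ± 1.39 CPM against Wnt3 from 2.46 ± 0.37 to 0.68 ± 0.152 CPM. The call of Wnt7b was lost in the fit of all 45 libraries (adjusted p = 0.016). Among 28 Wnt targets and antagonists, Sfrp5, a secreted antagonist, rose from 0.649 ± 0.0463 to 28.7 ± 1.81 CPM, Sp5 rose and Lef1 and Sfrp4 fell, while Axin2, the common readout, measured 22.6 ± 2.95 CPM without and 21.9 ± 1.41 CPM with RA. In that list 7.14% rose and 7.14% fell, against 8.17% and 2.76% over all genes. The chemokine list counted 3 rises of 9, which included the scavenger receptors Ackr3 from 4.37 ± 1 to 18.9 ± 1.7 CPM and Ackr4 from 3.33 ± 0.875 to 14.1 ± 0.577 CPM.

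Several genes of tissues other than the neural tube rose from near 0. In the extraembryonic list 13 of 23 rose (9 of 19 under the minimum of 10 counts per library) and 1 fell, with a median log2 fold change of 1.07. Sox17, an endoderm and endothelial gene, measured 0.271, 0.248 and 0.16 CPM in untreated and 8.42, 7.34 and 9.48 CPM in RA-treated organoids. Gata6 went from 0.415 ± 0.112 to 3.46 ± 0.777 CPM, Sox7 from 0.299 ± 0.0145 to 2.44 ± 0.404 CPM, Dab2, of primitive endoderm, from 9.02 ± 0.77 to 25.4 ± 0.516 CPM and Gcm1, of trophoblast, from 2.22 ± 0.209 to 12.5 ± 1.8 CPM. The summed level of the 4 primitive endoderm markers (Dab2, Afp, Ttr and Sox7) was 8.67 to 10.1 CPM in untreated and 27.3 to 28.9 CPM in RA-treated libraries, with Ttr at 0 and Afp under 0.1 CPM in every library. For endoderm (Sox17, Foxa2, Gata4 and Gata6) the sums were 2.56 to 3.02 CPM and 15.8 to 18.7 CPM. Members of these lists are also used by neural or surface ectoderm cells, and the part of other cell types in these rises was not tested.

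Mesoderm and endoderm regulators counted 7 rises and 2 falls of 19, and 2 of 11 rose under the minimum of 10 counts per library. Meox1 (ENSMUSG00000001493), a somite homeobox gene, measured 0.406, 0.371 and 0.534 CPM in untreated and 29.4, 31.7 and 31.5 CPM in RA-treated organoids (log2 fold change 6.09). In contrast T, the primitive streak gene, fell from 2.24 ± 0.729 to 0.467 ± 0.138 CPM. Of the 5 mesoderm markers T, Tbx6, Msgn1, Mesp1 and Meox1, only the last rose. Their summed level was 2.6 to 4.38 CPM in untreated and 30.8 to 33.5 CPM in RA-treated libraries, and Msgn1 and Mesp1 stayed under 1 CPM in every library. Simple epithelial and surface ectoderm genes counted 10 rises (7 of 21 under the minimum of 10 counts per library) and 2 falls of 25. Dlx3 went from 2.04 ± 0.233 to 18.4 ± 2.09 CPM, Gata2 from 1.52 ± 0.164 to 11.8 ± 0.871 CPM and the annexin gene Anxa3 from 2.5 ± 0.0394 to 9.1 ± 1.22 CPM. Among markers of stratified epithelium Krt5 rose, with 0.107 to 0.165 CPM in untreated and 0.66 to 1 CPM in RA-treated libraries. Trp63 and Krt14 stayed under 1 CPM in every library. The summed level of Trp63, Krt5, Krt14 and Grhl3 was 14.1 to 16.7 CPM in untreated and 27.6 to 35.3 CPM in RA-treated libraries. Grhl3, which was not called, made up most of that sum, with 13.9 to 16.6 CPM in untreated and 26.5 to 34.5 CPM in RA-treated libraries. Endothelial, blood and fibroblast genes moved both ways, 5 up (3 without RA 18 h replicate 3) and 5 down of 15, or 3 and 3 of 10 under the minimum of 10 counts per library, for example Pdgfrb from 2.22 ± 0.516 to 12.3 ± 1.15 CPM and Kdr from 2.02 ± 0.389 to 0.438 ± 0.203 CPM. Of the fibroblast markers, Col1a1 went from 1.09 ± 0.553 to 4.26 ± 0.488 CPM and Col3a1 stayed under 0.1 CPM.

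The germline and meiosis list counted 7 rises of 40 and no fall by edgeR, with 5 lower at an unadjusted p under 0.05 and 0 by DESeq2. Beside Stra8, Rec8, a meiotic cohesin subunit, rose from 14.4 ± 0.819 to 90.5 ± 3.87 CPM and Kit, the receptor of stem cell factor, from 55.2 ± 5.52 to 185 ± 19.4 CPM. Ddx4 and Dazl, which define germ cells, measured 40.3 ± 0.659 CPM without and 55.1 ± 0.891 CPM with RA and 13.6 ± 0.668 CPM without and 21.6 ± 1.36 CPM with RA and were not called. Of 29 imprinted genes 7 rose and 2 fell (1 with library totals, where Snrpn was at -0.975 on the log2 scale). Peg10, a retrotransposon-derived gene, rose from 660.2 ± 62.1 to 1923 ± 29.8 CPM, Mest from 229 ± 8.84 to 660.4 ± 1.68 CPM, Grb10, a growth factor receptor adaptor, from 302 ± 15.8 to 618 ± 1.02 CPM, and H19 and Igf2, which share a domain, from 9.13 ± 1.06 to 59.3 ± 1.21 CPM and 0.661 ± 0.101 to 4.8 ± 0.808 CPM. Snrpn and Magel2, both of the Prader-Willi domain, fell, Snrpn from 202 ± 4.75 to 94.4 ± 6.86 CPM, and Meg3 and Rian, of another domain, measured 973 ± 37.1 CPM without and 618 ± 23.6 CPM with RA and 858 ± 22.8 CPM without and 549.5 ± 37.5 CPM with RA without being called. Mest overlaps Copg2 and Igf2 overlaps Igf2os on the other strand.

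Of 43 tested laminins, collagens and other matrix genes 15 rose and 1 fell, 0 with library totals (median log2 fold change 0.57). The largest in level were Col2a1, the fibrillar collagen of notochord and cartilage, from 18 ± 0.867 to 57.8 ± 4.23 CPM, Col9a2 from 11.6 ± 0.84 to 30.7 ± 2.29 CPM and Col11a1 from 2.67 ± 1.03 to 9.07 ± 1.16 CPM. The laminins of the basement membrane, Lamc1, Lamb2 and Lama5, were not called. Lamc1 measured 279.8 ± 51.1 CPM without and 349.5 ± 36.1 CPM with RA and Lamb2 25.4 ± 2.53 CPM without and 34.2 ± 3.41 CPM with RA. Lama5 measured 308 ± 49.4 CPM without and 353 ± 44.7 CPM with RA. Serpinh1, the collagen chaperone, rose from 44.9 ± 5.93 to 132 ± 4.66 CPM. Among 18 integrins Itga3, a laminin receptor subunit, rose from 70.3 ± 7.78 to 238 ± 17.1 CPM together with Itgb3 and Itga7, and Itga1 fell.

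Of the genes that guide axons and sort cells, 12 of 49 in the semaphorin, plexin, Slit and netrin list rose and 2 fell. Plxna2, a semaphorin receptor, rose from 6.47 ± 0.333 to 42.4 ± 3.55 CPM, Sema3e from 21.1 ± 0.812 to 76.8 ± 3.85 CPM, Rgma from 13.8 ± 1.06 to 67.2 ± 4.09 CPM, Slit2 from 4.87 ± 1.07 to 24.3 ± 2.17 CPM and Robo2, a Slit receptor, from 0.286 ± 0.0348 to 3.18 ± 0.779 CPM. Sema6a and the netrin receptor gene Unc5b fell from 115 ± 8.44 to 27.2 ± 1.05 CPM and 85.1 ± 4.18 to 29.1 ± 2.57 CPM. Of 21 ephrins and Eph receptors, Efnb1 rose from 3.7 ± 0.539 to 37 ± 1.66 CPM, Epha7 rose from 7.04 ± 0.799 to 32 ± 2.87 CPM and Epha1 fell from 72.2 ± 3.92 to 27.5 ± 1.23 CPM. These 2 rises (9.52%) and 1 fall (4.76%) lay near the shares of 8.17% and 2.76% over all genes. Protocadherins, cell surface proteins that label single neurons, counted 18 rises and 3 falls of 36, with a median log2 fold change of 1.05. Under the minimum of 10 counts per library 13 of 25 rose, and with 1 library left out 12 to 20 rose. The rises were of clustered genes, such as Pcdhga4 from 0.828 ± 0.0286 to 3.01 ± 0.827 CPM and Pcdhgb6 from 0.328 ± 0.186 to 1.36 ± 0.113 CPM, and of Pcdh19 from 2.33 ± 0.525 to 7 ± 0.226 CPM. Members of the gamma cluster share exons at their end, so that the counting can split reads between them and the number of separate changes is uncertain. The falls were of unclustered genes, Pcdh1 from 86 ± 7.58 to 28.7 ± 1.34 CPM, Pcdh18 and Pcdh10.

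Genes of cell junctions and polarity, which shape the lumen of an organoid, moved in both directions. Of 23 genes of apical polarity and lumen 5 rose (21.7%, and 3 without RA 18 h replicate 3) and 2 fell (8.7%). Llgl2, a basolateral polarity protein gene, measured 61.7, 54.5 and 59 CPM in untreated and 221, 249 and 257 CPM in RA-treated organoids. Podxl, which coats apical membranes facing a lumen, measured 282, 239 and 274 CPM in untreated and 56.2, 63.2 and 60.5 CPM in RA-treated organoids, and Msn, which links membrane to actin, fell from 289 ± 22 to 128 ± 7.3 CPM. Crb2, of the apical Crumbs complex, rose from 4.47 ± 1.14 to 9.63 ± 0.0904 CPM, while Prkci, Pard3 and Ezr measured 226 ± 8.2 CPM without and 288 ± 7.76 CPM with RA, 101 ± 8.49 CPM without and 107 ± 3.39 CPM with RA and 356 ± 29.1 CPM without and 266 ± 22.2 CPM with RA and were not called. Among 21 cadherin genes Cdh1, the epithelial cadherin, measured 734 ± 101 CPM without and 404 ± 44.1 CPM with RA (log2 fold change -0.85, adjusted p = 5.9e-06) and Cdh2, the neural cadherin, 18.7 ± 2.19 CPM without and 20.4 ± 0.869 CPM with RA, neither past the threshold of size. Cdh3 fell from 32.2 ± 5.07 to 12.5 ± 1.77 CPM and Cdh6, of the hindbrain and crest, rose from 0.882 ± 0.277 to 6.26 ± 0.824 CPM. Claudins and tight junction genes counted 3 rises and 2 falls of 19.

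Of 30 genes of actomyosin and apical constriction 2 rose (6.67% against 8.17% over all genes, and 4 with library totals) and none fell by edgeR, with 14 higher and 8 lower at an unadjusted p under 0.05 and 0 lower by DESeq2. The rises were Myl9, a myosin light chain, from 1.27 ± 0.258 to 3.59 ± 0.37 CPM and Rnd1 from 3.06 ± 0.281 to 6.12 ± 0.371 CPM. The log2 fold change of Rnd1 was 0.993 and 0.991 without RA 18 h replicates 2 and 3 and 0.988 and 0.963 without untreated 18 h replicates 2 and 3, each just under the threshold, and it was 0.999 with RLE factors and 0.988 by DESeq2. Rock2 measured 153 ± 13.1 CPM without and 269.7 ± 36.6 CPM with RA (log2 fold change 0.83), Myh9 556 ± 99 CPM without and 459 ± 75 CPM with RA and Shroom3, which drives apical constriction, 87.9 ± 7.01 CPM without and 70 ± 5.64 CPM with RA. Of 22 planar cell polarity genes 0 were called by edgeR, with 10 higher and 6 lower at an unadjusted p under 0.05, and DESeq2 called 0 as rises. In the list of lysophosphatidic acid (LPA) signalling and lipid phosphatases 4 of 23 rose (2 without RA 18 h replicate 2 or untreated 18 h replicate 1, and 2 of 18 under the minimum of 10 counts per library) and 2 fell. Beside Enpp2, the secreted enzyme that makes LPA, at 27.1 ± 1.94 CPM without and 0.583 ± 0.262 CPM with RA, the sphingosine phosphate receptor gene S1pr3 fell, and Plppr1, of neuronal membranes, rose from 0.539 ± 0.165 to 7.03 ± 0.738 CPM. The LPA receptor genes Lpar2, Lpar4 and Lpar6 measured 33.8 ± 0.0755 CPM without and 26 ± 0.885 CPM with RA, 64.2 ± 9.57 CPM without and 38.3 ± 6.66 CPM with RA and 23.9 ± 2.24 CPM without and 35.2 ± 3.16 CPM with RA and were not called.

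Channels and transporters contributed many scarce transcripts. Of 59 potassium channel genes 14 rose (9 without RA 18 h replicate 2 or untreated 18 h replicate 3) and 7 fell, for example Kcnk6 from 12 ± 0.902 to 27.9 ± 0.882 CPM and Kcnt1 from 2.63 ± 0.214 to 10 ± 0.378 CPM against Kcnj3 from 46.3 ± 3.75 to 13.1 ± 2.16 CPM. Voltage-gated sodium and calcium channel genes counted 8 rises and 2 falls (0 with library totals) of 33, with the T-type calcium channel gene Cacna1g from 5.92 ± 0.755 to 16.2 ± 0.748 CPM. Of 287 solute carriers 34 rose (11.8%, and 20 of 252 under the minimum of 10 counts per library) and 15 fell (5.23%), shares not far from those over all genes. The 2 glucose transporter genes Slc2a1 and Slc2a3 were among the most abundant genes of the whole response per length: Slc2a1 measured 986, 833 and 987 CPM in untreated and 1827, 1963 and 2036 CPM in RA-treated organoids. Slc2a3 measured 947, 774 and 969.8 CPM in untreated and 1642, 1951 and 1843 CPM in RA-treated organoids. Their log2 fold changes of 1.06 and 1.03 sat at the threshold of size: Slc2a1 had 0.99 without untreated 18 h replicate 2, and Slc2a3 had 0.93 without it and 0.968 without RA 18 h replicate 2 and 0.997 by DESeq2. Enzymes of glycolysis did not rise with them: Pkm measured 3383 ± 318 CPM without and 2307 ± 197 CPM with RA and Ldha 1447 ± 77.9 CPM without and 739 ± 61.5 CPM with RA. Gapdh measured 1410.1 ± 65.4 CPM without and 1151 ± 94.3 CPM with RA, and none was called. Ldha passed the threshold as a fall without RA 18 h replicate 2 (log2 fold change -1.01). In the whole glycolysis and hypoxia list 4 of 38 rose (2 without RA 18 h replicate 2 or untreated 18 h replicate 2) and 3 fell, and Vegfa, the vascular growth factor, rose from 24.6 ± 1.21 to 88.3 ± 3.25 CPM.

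Per kilobase of exon, the 10 most abundant genes that rose were Slc2a1, Mdk, Peg10, Stra8, Slc2a3, Crabp2, Mest, Cyp26a1, Halr1 and Aqp3. Mdk, the heparin-binding growth factor midkine that was first found as an RA-induced gene, rose from 174 ± 4.02 to 616 ± 21.3 CPM, and Aqp3, a water and glycerol channel, from 13.5 ± 0.633 to 158 ± 19.2 CPM. The 10 most abundant genes that fell were Dnmt3b, Pou5f1, L1td1, Utf1, Pim2, Trh, Tdh, Slc38a2, Rbpms2 and Mycn. Pim2, a survival kinase, fell from 562 ± 3.16 to 85 ± 8.03 CPM, Trh, a neuropeptide precursor, from 219 ± 1.31 to 40 ± 1.68 CPM, Tdh, the threonine dehydrogenase of mouse stem cells, from 386 ± 18.7 to 58.4 ± 5.86 CPM, and Slc38a2, an amino acid transporter, from 997 ± 53.8 to 456 ± 23.8 CPM.

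The largest changes by size included genes with little annotation. Among the 15 largest rises with a mean of at least 1 CPM, Gm12576, a long noncoding RNA, ccdc198, Akr1c19, of an aldo-keto reductase cluster of near-identical copies, and BC048679 had at most 3 counts in every untreated library, and no fold change is given for them. Their RA-treated means were 2.1 ± 0.344 CPM, 6.49 ± 0.973 CPM, 4.94 ± 0.0656 CPM and 2.32 ± 0.343 CPM. Among the 15 largest falls, Vrtn, which sets vertebral number, went from 86.3 ± 3.73 to 4.63 ± 0.63 CPM, Bcl11a, a zinc finger repressor, from 26.4 ± 1.85 to 2.72 ± 0.722 CPM, Sphkap, an anchor of protein kinase A, from 5.81 ± 0.758 to 0.285 ± 0.0932 CPM, Cdhr1, a photoreceptor cadherin, from 11.2 ± 0.235 to 1.16 ± 0.256 CPM and Grm6, a glutamate receptor, from 25.1 ± 0.859 to 1.35 ± 0.156 CPM. Atf3, a stress-induced factor, rose from 3.31 ± 0.572 to 43.2 ± 1.47 CPM, although 18 of the 20 immediate early and heat shock genes were not called.

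**Figure D4:**
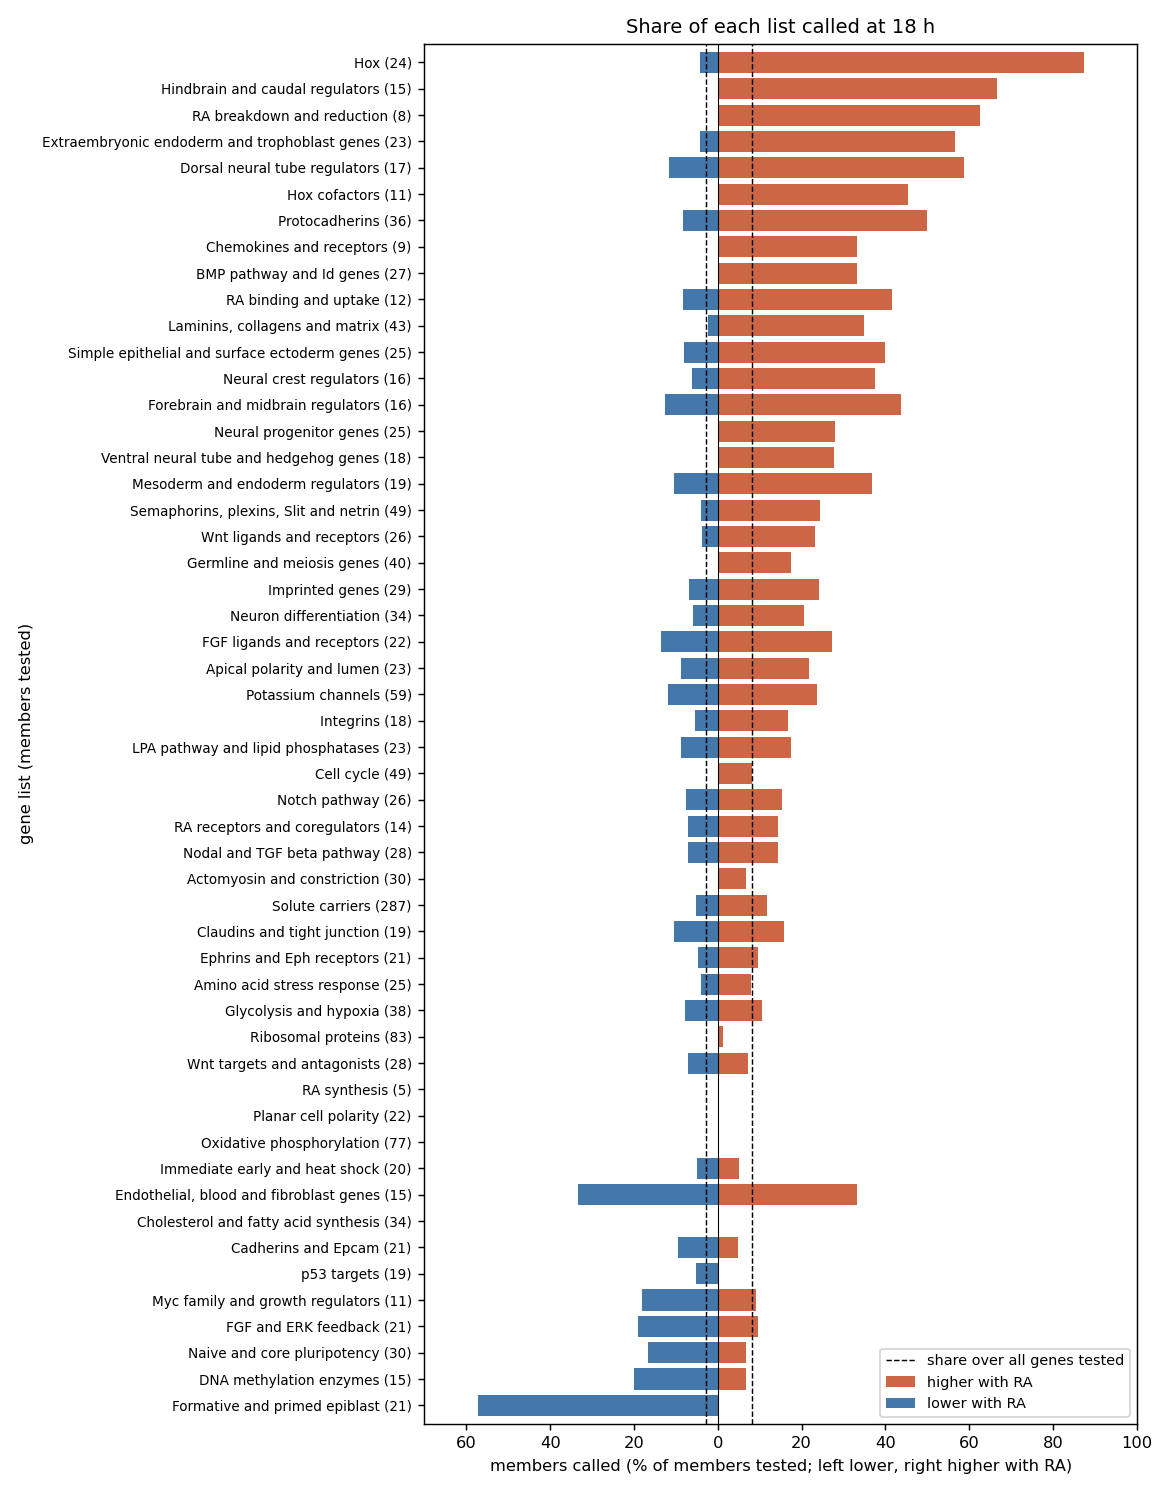
Share of the tested members of each gene list that rose (right) or fell (left) at 18 h, in percent, with dashed lines at the shares over all genes (8.17% and 2.76%) and the number tested in parentheses. Hox genes reach 87.5% on the right and formative and primed epiblast genes 57.1% on the left, while planar cell polarity, cholesterol synthesis and oxidative phosphorylation have no bar.

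Of 49 cell cycle genes 4 rose (8.16% against 8.17% over all genes) and none fell by edgeR, with 25 lower at an unadjusted p under 0.05 and 0 by DESeq2. Ccnd2, a D-type cyclin, rose from 46 ± 3.99 to 176 ± 9.66 CPM and Cdkn1c, an inhibitor of cyclin-dependent kinases, from 27.4 ± 1.36 to 66.7 ± 2.85 CPM, whereas Ccnd1 measured 357 ± 15.9 CPM without and 190.3 ± 5.13 CPM with RA and Mki67 450.3 ± 19.2 CPM without and 537 ± 22.2 CPM with RA. Of 19 p53 target genes 1 was called, Pmaip1, which fell from 78.4 ± 1.35 to 32 ± 1.29 CPM. The median log2 fold change of that list was -0.37, and 15 were lower at an unadjusted p under 0.05. Ribosomal protein genes had a median of -0.18, with 1 of 83 called, a rise, and 60 lower and 2 higher at an unadjusted p under 0.05. Oxidative phosphorylation genes had a median of -0.12 with 0 of 77, and cholesterol and fatty acid genes -0.07 with 0 of 34. For the last 2 lists edgeR found 3 and 7 genes higher and 35 and 13 lower at an unadjusted p under 0.05, and DESeq2 called 0 and 0. Scaling by library totals moved the median of all genes from 0.02 to 0.14, so that these small medians depend on the scaling. That scaling also moved the split of called genes, from 74.8% to 81% rises.

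The effect of RA at 18 h was set against that at 8 h, the nearest time point, by an interaction test over 12 libraries that do not overlap. The effects differed in 58 of 17009 genes (0.341%) at an adjusted p under 0.01, and in 0 with the replicate number as a block. In 45 of the 58 the 2 effects had the same sign and the one at 18 h was larger, in 0 it was smaller, and in 13 the signs were opposite. RA 8 h replicate 3 stood apart with 3.65 CPM on average over 4 genes of the Y chromosome, against 74 to 89.5 CPM in the other libraries at 8 h, and with 0.0781% of its counts from mitochondrial genes, against 0.00232% to 0.00347% in the other 11 libraries of the test. Low Y gene means were not particular to it in the series. At 30 h they were 3.29, 2.58 and 3.2 CPM in untreated libraries. The RA 30 h libraries had 1.22, 29.1 and 2.05 CPM in replicates 1, 2 and 3. Without it 456 genes differed, which held all 58 of the above. The number was 56 without RA 8 h replicate 1 and 46 without RA 8 h replicate 2. It fell further when any of the 9 other libraries was left out, to between 11 (without RA 18 h replicate 3) and 24 (without untreated 18 h replicate 2). The others of these 9 gave 15 without untreated 8 h replicate 2 or untreated 18 h replicate 3, 17 without untreated 8 h replicate 3, 18 without RA 18 h replicate 1, 21 without untreated 8 h replicate 1 or untreated 18 h replicate 1, and 22 without RA 18 h replicate 2.

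At 8 h Foxd3 measured 47.2 ± 3.78 CPM without and 4.76 ± 1.48 CPM with RA, and the 18 h effect was lower by 2.66 on the log2 scale (adjusted p = 0.0012, and 1.5e-07 without RA 8 h replicate 3). Bcl11a measured 32.6 ± 0.432 CPM without and 12.4 ± 1.36 CPM with RA and Fgf4 241 ± 7.43 CPM without and 129 ± 23.1 CPM with RA at 8 h, with differences of -1.87 and -1.40. Mycn, already low at 8 h with 349 ± 19.7 CPM without and 85.7 ± 4.36 CPM with RA, had a difference of -0.61, Tdh of -1.83, Sphkap of -2.67, Cdhr1 of -1.55 and Spry2 of -0.63. Crabp2 measured 38.3 ± 6.8 CPM without and 60.8 ± 29.1 CPM with RA at 8 h, a difference of 2.67 (adjusted p = 0.0058, and 4.2e-09 without RA 8 h replicate 3), Cdx1 1.5 ± 0.382 CPM without and 14.6 ± 2.44 CPM with RA with 2.24, and Tshz1 1.18 ± 0.0998 CPM without and 9.22 ± 2.8 CPM with RA with 2.84. Zfp703, at 2.05 ± 0.0206 CPM without and 100.2 ± 8.99 CPM with RA, differed by 1.43, Plxna2 by 1.94, Flrt3 by 1.49, Pax6 by 0.98 and Myl9 by 2.28. Mest, Grb10 and Cdkn1c, all imprinted, differed by 1.50, 0.64 and 0.78, Mxd4 by 0.88 and Serpinh1 by 0.88. For Mest the 8 h means were 221 ± 7.04 CPM without and 227 ± 48.9 CPM with RA, so that the means were level at 8 h and apart at 18 h. The RA mean at 8 h includes RA 8 h replicate 3, and without that library the difference of Mest was 1.33.

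**Figure D5:**
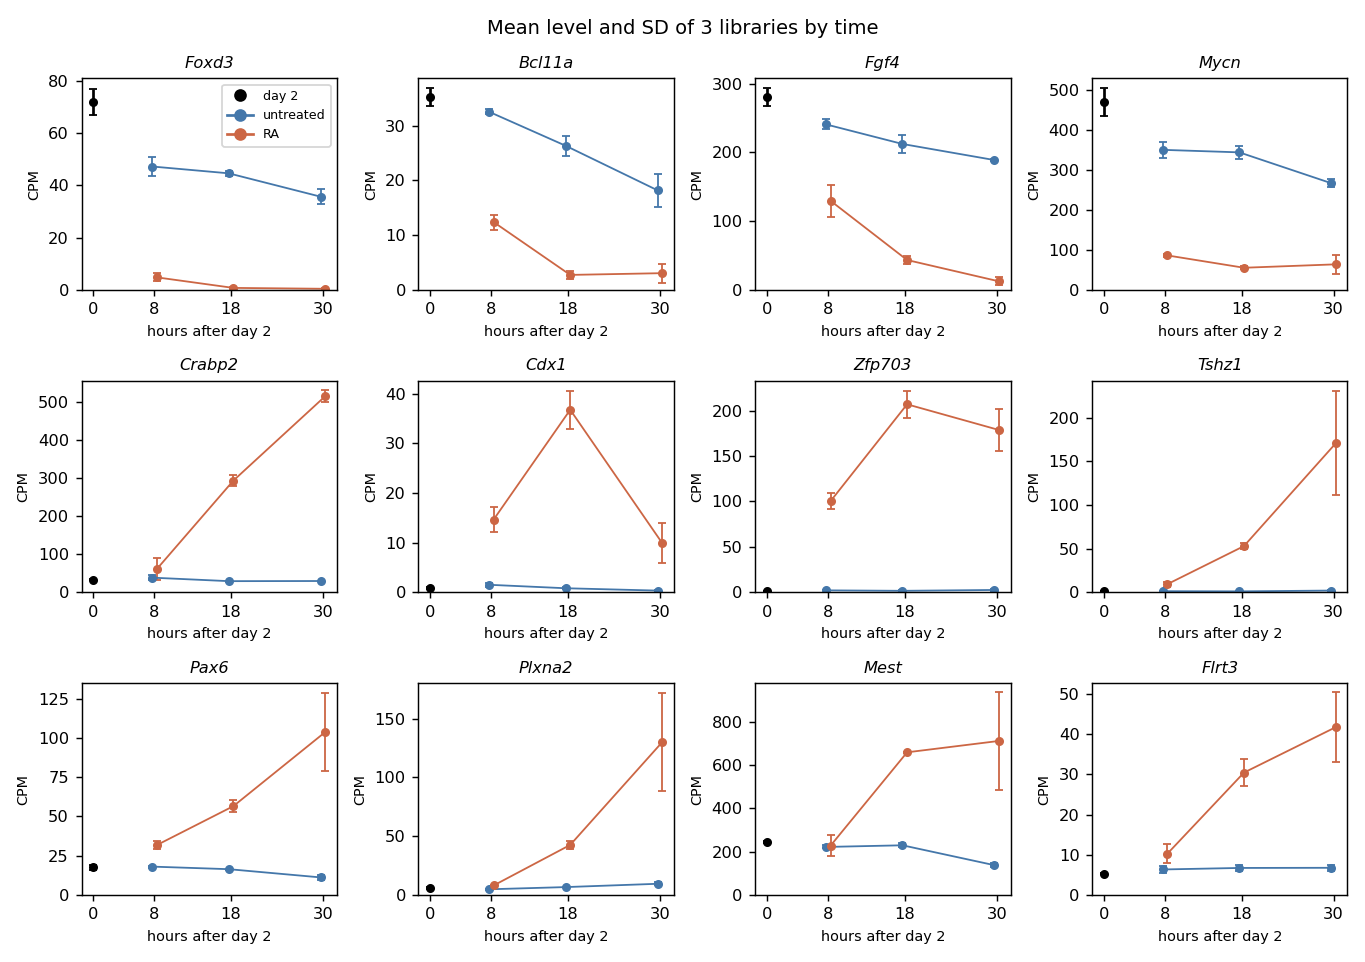
Mean level in CPM with SD of 3 libraries for 12 genes at day 2 (black), and at 8, 18 and 30 h with (orange) and without (blue) RA. Most libraries at 30 h were low in Y chromosome genes, unlike those at 18 h. Foxd3, Bcl11a, Fgf4 and Mycn are lower with RA at 8 h and lower still at 18 h. The means of Mest are level at 8 h, where the RA mean includes RA 8 h replicate 3, and apart at 18 h.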

How the data were processed

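Whole-number read counts per gene, not normalised, were deposited by the authors for 45 libraries of bulk poly(A) RNA. Per the labels and the study's methods, reads were trimmed (Trim Galore 0.5.0), screened with Bowtie2 2.3.4.1, aligned to GRCm38 with STAR and counted with featureCounts (Subread 1.6.2), and the libraries were made with a directional kit. The strand setting of the counting and the handling of multimapping reads are not given in the sources used here. Whether reads of a gene and an antisense partner were kept apart is thus not known. Besides the overlaps named above this touches, among others, Enpp2, H19, Bcl11a, Fst, Meis1, Zfp703, Slc2a1, Pou5f1, Tdh, Grm6 and ccdc198. All columns were mapped to samples by their names.

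The 3 RA-treated and 3 untreated libraries at 18 h were compared with edgeR 4.0.16 (R 4.3.3): filterByExpr with a minimum count of 10, TMM scaling, quasi-likelihood test, Benjamini-Hochberg adjustment over all 16508 genes tested, and a call at an adjusted p under 0.01 with a log2 fold change beyond 1 in either direction. Every gene with no p of its own in the text was called, or not, by this fit. The script was tested on simulated data. CPM values are TMM-scaled over all 45 libraries. The difference between times is an interaction term in 12 libraries. Replicates differed by more than counting noise, at 1.97 to 10.3 times the chi-square that counting alone gives per gene.

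The 48 lists and 28 symbol families, and the members described, were chosen with earlier results of these data known. Named genes are list members, the 15 largest rises and falls with a mean of at least 1 CPM, and the 10 most abundant per kilobase in each direction. Alternatives were RLE factors, library totals, DESeq2 1.42.0, other filters, thresholds and prior counts, a fit of all libraries, a replicate block and leaving out each library. Some members of the lists are counted but not reported by name here.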

Additional observations from a re-analysis of the deposited data

Results flagged for a closer look

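The effect of RA differed between 18 h and 8 h in 58 genes by edgeR's interaction test (adjusted p under 0.01), and 20 of them are named above and 1, Tshz1, was chosen after its values were seen. The effect at 18 h minus that at 8 h, on the log2 scale, was negative for genes that fell. It was -2.67 for Sphkap, -2.66 for Foxd3, -1.87 for Bcl11a, -1.83 for Tdh, -1.55 for Cdhr1, -1.40 for Fgf4, -0.63 for Spry2 and -0.61 for Mycn.

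The difference was positive for genes that rose. It was 2.84 for Tshz1, 2.67 for Crabp2, 2.28 for Myl9, 2.24 for Cdx1, 1.94 for Plxna2, 1.50 for Mest, 1.49 for Flrt3 and 1.43 for Zfp703, and 0.98 for Pax6, 0.88 for Mxd4 and Serpinh1, 0.78 for Cdkn1c and 0.64 for Grb10. The number of such genes depended on which libraries entered, and 1 of the 12, RA 8 h replicate 3, stood apart in genes of the Y chromosome and in its share of mitochondrial counts. Its part in the differences was not tested beyond the values without it.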

How the results depend on the processing

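The 1348 rises and 455 falls stayed within 1.5 times these counts under RLE factors, library totals, DESeq2, either filter, the fit of all 45 libraries, a prior count of 2 and with each library left out (1170 to 1344 rises, 431 to 483 falls), and in none of these was a gene called in the opposite direction. A test against a log2 fold change of 1 called 521 and 185, and an adjusted p under 0.05 with no fold threshold 4765 and 4307. The 58 genes with a different effect at 18 h and 8 h became 313 with DESeq2, 348 with no filter, 227 in the fit of all 45 libraries and 11 to 456 with 1 library left out, and the cause was not tested. The 227 genes named with their values were not followed under the test against a log2 fold change of 1 or the adjusted p under 0.05. Under the minimum of 10 counts per library 191 of them could be tested. In the alternatives where they were tested 210 kept their direction and call, 13 changed call in some and 4, none of them called, changed sign. With library totals Axin2 had a log2 fold change of 0.082, Hoxc13 0.042, Tubb3 0.023 and Zfp42 0.095. With 1 library left out Axin2 ranged from -0.128 to 0.035, Hoxc13 from -0.307 to 0.36 and Zfp42 from -0.076 to 0.024.

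Replicate numbers did not pair the libraries, since deviations of same-numbered libraries from their group means correlated at -0.217, -0.286 and 0.0948. With the replicate number as a block, 1248 genes rose and 426 fell, and 0 differed between 18 h and 8 h by edgeR (2264 at an unadjusted p under 0.05; 313 by DESeq2 without the block). With 3 libraries a group, the depth limits calls for genes near 10 counts, and p-values measure the spread between cultures of 1 line.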
